A study of Homo sapiens with 18 samples.

Results

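The 9 genes described here are linked to secretion in the breast and are called secretory genes for short. The set holds MUCL1, the secretoglobins SCGB1D2, SCGB2A1 and SCGB2A2, the prolactin-induced protein PIP, the zinc glycoprotein AZGP1, the mucin MUC1, and the disulfide isomerases AGR2 and AGR3. They were taken from the 23500 named rows of the RNA-seq table by their RefSeq identifiers, and all 9 were among the 11134 genes tested, those with a mean log2(FPKM + 0.5) above 1. They were chosen by their measured FPKM in these 4 RNA-seq libraries, so their expression is given as a description and carries no test. The data come from ZR751 (ZR75-1), an established ER+ luminal breast cancer cell line grown at steady state in serum and insulin. ZR751shMLL3 cells stably carry a lentiviral hairpin against MLL3 (gene KMT2C), and ZR751shLucif control cells carry a hairpin against luciferase in its place. Both lines were sorted on GFP and used at early passage, and each was made with 1 hairpin, so an effect of the hairpin or of the line cannot be told apart from loss of MLL3. RNA-seq was done on 2 biological replicates of each line, as were ChIP-seq of H3K4me1, ERα and SP1, with 1 input per line, for 18 samples in all.

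MUCL1 (small breast epithelial mucin) is a short, heavily O-glycosylated protein, and MUC1 is the membrane mucin of the apical surface. Secretoglobins are small secreted proteins that pair through disulfide bonds, and SCGB2A2 (mammaglobin A) forms a complex with SCGB1D2 (lipophilin B). PIP and AZGP1 are products of apocrine and luminal cells. AGR2 and AGR3 are enzymes of the endoplasmic reticulum, of which AGR2 acts on secreted proteins such as mucins. MLL3 is a methyltransferase that places H3K4me1, a histone mark found at enhancers. ERα is a hormone-activated transcription factor that binds mainly at such distal sites, and SP1 binds GC boxes.

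The knocked-down gene was measured first. Levels are in FPKM, fragments scaled by transcript length and library size. FPKM hold no counts, so the depth cannot be read from them, and the study reports it separately. KMT2C had 2.34 and 6.77 FPKM in ZR751shLucif replicates 1 and 2, against 1.07 and 2.69 FPKM in ZR751shMLL3. The lines overlapped, because ZR751shLucif replicate 1 lay below ZR751shMLL3 replicate 2, and the difference was -1.02 ± 0.544 (SE) on the log2(FPKM + 0.5) scale, with an adjusted p of 0.629 by limma. The study separately reports the MLL3 knockdown by qPCR, a measurement that is not among these data. ZR751shLucif replicate 1 stood apart from the other libraries over all genes tested. Its Pearson correlations with them were 0.900 to 0.907, against 0.947 to 0.969 among the other 3. Its FPKM over all rows summed to 701359, against 487395 to 524210 in the other 3. This was not a shift of every gene, since KMT2C and AGR3 were lower in it than in ZR751shLucif replicate 2. Why the sum was larger was not tested. All 8 luminal epithelium markers were above 1 FPKM in every library, with a summed level of 4944 to 12535 FPKM. The 7 basal or myoepithelial markers summed to 2.77 to 5.52 FPKM, the 5 fibroblast markers in the table to 13.2 to 17.9 FPKM, nearly all of it COL1A1, and the 6 immune markers to 9.03 to 15.3 FPKM, most of it CD68. KRT5 was between 0 and 0.0394 FPKM, PTPRC between 0 and 0.0318 FPKM, and CD3D was listed at 0 in every library. Each line has only 2 libraries, and an exact two-sided permutation test of 2 against 2 cannot go below a p of 0.333.

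MUCL1 showed the widest separation of the 9 genes. It had 570.3 and 282 FPKM in the ZR751shLucif replicates and 8.21 and 17.7 FPKM in the ZR751shMLL3 replicates. The lowest control value was 16.0 times the highest knockdown value, and the means of 426 ± 204 and 12.9 ± 6.69 FPKM (SD, n = 2 each) differed 32.9-fold. The fitted difference was -5.00 ± 0.488 (SE) on the log2(FPKM + 0.5) scale, and only 1 of the 11134 genes tested had a lower value. By its level, MUCL1 ranked 186th and 249th of all rows in the control libraries and 6880th and 4472nd in the knockdown libraries. In a bulk library, fewer cells that express a gene cannot be told apart from less RNA per cell.

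Among the secretoglobins, SCGB2A2 was the most abundant and differed most. It had 3066 and 1769 FPKM in ZR751shLucif and 975 and 696 FPKM in ZR751shMLL3, a difference of -1.50 ± 0.368 (SE, log2). It ranked 22nd and 18th of all rows in the control libraries, and 64th and 104th in the knockdown libraries. SCGB1D2, its partner, had 434 and 159 FPKM in ZR751shLucif and 147 and 115 FPKM in ZR751shMLL3, a difference of -1.01 ± 0.494 (SE, log2). The groups did not overlap, but the lower control was only 1.08 times the higher knockdown value, and the 2 controls themselves differed 2.73-fold. Without ZR751shLucif replicate 1 the difference of SCGB1D2 was -0.28, and without replicate 2 it was -1.74 (log2). SCGB2A1 (mammaglobin B) was low in both lines, at 13.8 and 12.0 FPKM against 7.95 and 8.27 FPKM, a difference of -0.64 ± 0.265 (SE, log2) in which every knockdown value was below every control value.

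PIP, a secreted glycoprotein of apocrine cells, had 53.2 and 36.0 FPKM in ZR751shLucif and 21.3 and 18.2 FPKM in ZR751shMLL3, a difference of -1.13 ± 0.309 (SE, log2). AZGP1, a secreted glycoprotein linked to lipid breakdown, had 239.7 and 195 FPKM against 133 and 133 FPKM, a difference of -0.70 ± 0.272 (SE, log2). Neither gene overlapped between the lines, and in both the 2 knockdown libraries lay closer together than the 2 controls. AGR2 had 1378 and 810.4 FPKM in ZR751shLucif and 516 and 372 FPKM in ZR751shMLL3, a difference of -1.27 ± 0.362 (SE, log2), again without overlap.

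AGR3 and MUC1 did not separate the lines. AGR3, next to AGR2 on chromosome 7, had 73.9 and 164 FPKM in ZR751shLucif and 92.3 and 52.2 FPKM in ZR751shMLL3. Its difference of -0.66 ± 0.473 (SE, log2) was -1.23 without ZR751shLucif replicate 1 and -0.09 without replicate 2. MUC1 had 1519 and 586 FPKM in ZR751shLucif and 923 and 930.2 FPKM in ZR751shMLL3, so the knockdown libraries lay between the controls and the difference was -0.03 ± 0.466 (SE, log2). The sign for MUC1 turned to 0.66 without ZR751shLucif replicate 1, to 0.32 after quantile normalization and to 0.05 with library medians set equal.

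Counted together, 7 of the 9 genes had both knockdown values below both control values, and none had both above. Among all 11134 genes tested, 25.3% had both knockdown values below both controls and 17.6% had both above. The median log2 difference of the 9 genes was -1.01, beside a median of -0.10 over all genes tested. With the trend on transcript GC content removed, the median over all genes tested was 0.00 (log2), 18.6% of genes had both knockdown values below both controls, and the count among the 9 genes was again 7. Nothing is read from these counts, since the same values led to the choice of the genes. The genes are also not independent of each other, because the 3 secretoglobins lie in 1 cluster and AGR2 and AGR3 are adjacent, so the 9 genes stand at 6 loci. Their summed level was 1.05% and 0.823% of all FPKM in the control libraries and 0.539% and 0.458% in the knockdown libraries. Over all genes tested limma called 1 gene lower and none higher at an adjusted p of 0.05, which is 0.00898% of genes, and 889 genes had an unadjusted p under that value.

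**Figure D1:**
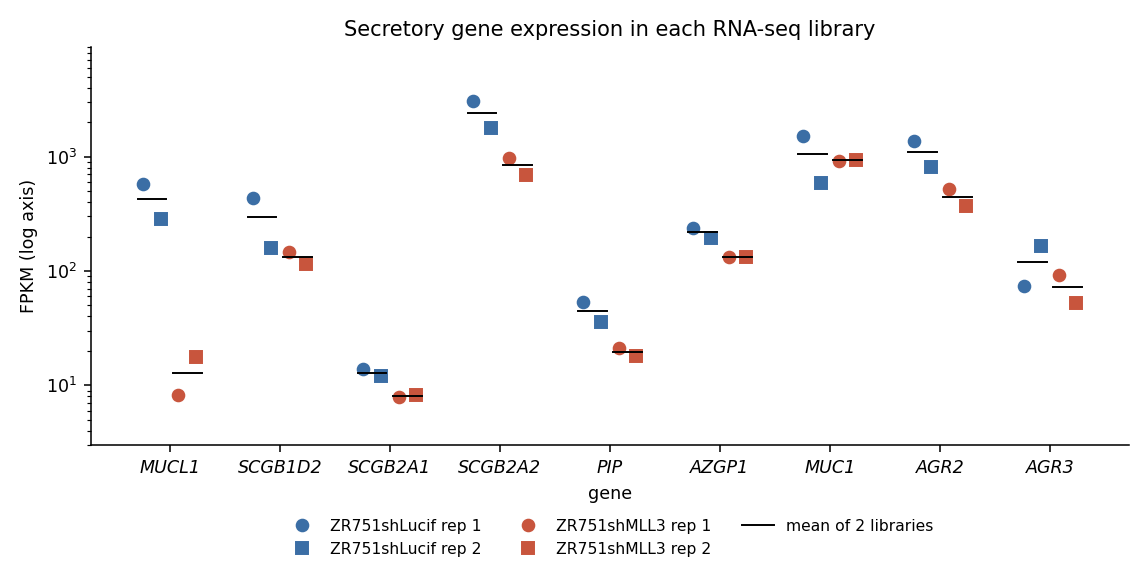
FPKM (log axis) of the 9 secretory genes in each RNA-seq library, with circles for replicate 1, squares for replicate 2, blue for ZR751shLucif, red for ZR751shMLL3 and a line at the mean of each pair. MUCL1 is at 570.3 and 282 FPKM in the controls and at 8.21 and 17.7 FPKM in the knockdown libraries, whereas the MUC1 knockdown values lie between the controls.

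The 250 bases before the start sites of 7 of these genes are shown here so that the genes of 1 family can be compared base by base. They were read 5′ to 3′ on the strand of the gene from the GRCh37 (hg19) reference, the build of the deposited files. Capitals mark matches, on either strand, to the motifs searched: the full estrogen response element, its half-site AGGTCA, the forkhead motif TGTTTAC, the GATA motif AGATAA, the GC box GGGCGG, the AP-1 motif TGANTCA, and the TATA core TATAA and TATA-like ATAAATA, which can overlap and which were added after the sequences were seen.
MUCL1 (chr12:55248050-55248299, plus strand): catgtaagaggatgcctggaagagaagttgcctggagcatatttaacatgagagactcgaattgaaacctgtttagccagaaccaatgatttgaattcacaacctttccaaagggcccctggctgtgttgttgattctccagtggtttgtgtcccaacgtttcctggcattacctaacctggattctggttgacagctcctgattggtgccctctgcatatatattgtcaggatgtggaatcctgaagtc
SCGB2A1 (chr11:61975895-61976144, plus strand): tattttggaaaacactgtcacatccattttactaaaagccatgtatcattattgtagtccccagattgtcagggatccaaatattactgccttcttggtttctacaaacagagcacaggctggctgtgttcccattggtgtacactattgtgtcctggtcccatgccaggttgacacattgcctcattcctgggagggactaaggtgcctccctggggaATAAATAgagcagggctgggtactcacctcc
SCGB2A2 (chr11:62037380-62037629, plus strand): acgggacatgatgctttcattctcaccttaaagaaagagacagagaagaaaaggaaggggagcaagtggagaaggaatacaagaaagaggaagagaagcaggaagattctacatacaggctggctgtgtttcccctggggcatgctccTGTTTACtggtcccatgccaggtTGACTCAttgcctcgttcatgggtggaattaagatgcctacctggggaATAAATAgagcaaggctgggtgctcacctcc
PIP (chr7:142828920-142829169, plus strand): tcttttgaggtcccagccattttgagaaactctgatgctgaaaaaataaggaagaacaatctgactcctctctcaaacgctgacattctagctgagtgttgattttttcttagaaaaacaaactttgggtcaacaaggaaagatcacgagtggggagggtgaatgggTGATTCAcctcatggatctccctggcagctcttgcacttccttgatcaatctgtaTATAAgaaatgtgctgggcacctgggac
AGR2 (chr7:16844624-16844873, minus strand): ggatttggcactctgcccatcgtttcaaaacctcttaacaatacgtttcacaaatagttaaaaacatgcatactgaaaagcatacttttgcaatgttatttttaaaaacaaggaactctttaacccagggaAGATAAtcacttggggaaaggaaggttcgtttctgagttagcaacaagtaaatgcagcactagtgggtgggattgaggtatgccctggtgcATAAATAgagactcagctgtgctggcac
AGR3 (chr7:16921608-16921857, minus strand): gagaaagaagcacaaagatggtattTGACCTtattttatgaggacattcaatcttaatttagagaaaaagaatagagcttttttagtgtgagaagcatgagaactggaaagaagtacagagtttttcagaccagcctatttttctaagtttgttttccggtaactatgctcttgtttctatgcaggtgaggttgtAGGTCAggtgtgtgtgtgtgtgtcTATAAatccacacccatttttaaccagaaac
MUC1 (chr1:155162707-155162956, minus strand): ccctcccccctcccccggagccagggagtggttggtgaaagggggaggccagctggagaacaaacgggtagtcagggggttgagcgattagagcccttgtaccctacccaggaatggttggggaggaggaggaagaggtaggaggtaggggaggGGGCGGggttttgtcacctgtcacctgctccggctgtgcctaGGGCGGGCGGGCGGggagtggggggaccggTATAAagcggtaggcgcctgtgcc

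The SCGB2A1 and SCGB2A2 sequences were identical at 88 of the last 100 bases when laid end to end without gaps. SCGB2A2 and SCGB1D2 were identical at 26 of 100, and AGR2 and AGR3 at 32 of 100. Both SCGB2A1 and SCGB2A2 held ATAAATA at position -31, counted back from the base before the start site as -1, and AGR2 held it at -28. This stretch was in 3.36% of the same 250 bases of 17865 protein-coding genes. PIP, MUC1 and AGR3 held TATAA at -28, -24 and -31, a match found in 15.5% of promoters. SCGB2A2 alone of the pair held a forkhead match, at -102, and an AP-1 match, at -79, found in 2.03% and 4.71% of promoters. PIP held an AP-1 match at -83. AGR3 held 2 half-sites, and 9.68% of promoters had at least 1. MUC1 held 4 GC boxes, 3 of them overlapping, which 60.7% of promoters had, and AGR2 held 1 GATA match, which 6.54% had. MUCL1, SCGB1D2 and AZGP1 matched none of the letters searched in these windows. No member held a full estrogen response element, which was in 0.0112% of promoters. A match describes letters only.

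H3K4me1 was then compared near each gene. The genes were chosen with earlier results of these data known, so their peak counts are also given as a description, without a p for any of them. The peak callers' lists differ in scale and length, so the 50000 peaks with the strongest signal in each list were taken and those within 100 kb of a gene counted. MUCL1 had 7 and 7 H3K4me1 peaks in the ZR751shLucif lists and 4 and 2 in the ZR751shMLL3 lists, a log2 ratio of -1.16 ± 0.405 (SE). PIP had 7 and 8 against 3 and 3, a log2 ratio of -1.19 ± 0.237 (SE). Around MUC1, whose RNA overlapped between the lines, there were 28 and 27 peaks against 17 and 16, a log2 ratio of -0.72 ± 0.229 (SE). AGR2 had 66 and 81 against 50 and 54, and AGR3, whose window mostly repeats that of AGR2, had 65 and 78 against 53 and 59. AZGP1 had 2 and 4 against 1 and 2, which tie at 2. The secretoglobins had few peaks in any list: SCGB1D2 and SCGB2A1 shared 2 and 1 against 2 and 2, and SCGB2A2 had 2 and 1 against 3 and 2.

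Thus 5 of the 9 genes, at 4 of the 6 loci counting AGR2 and AGR3 once, had fewer H3K4me1 peaks in both knockdown lists, beside 16.1% of the 15497 genes tested. None had more in both, beside 15.7% of those genes. Taking the same number of peaks from each list fixes the totals. With all peaks at an FDR of 0.01 in their place, 7 of the 9 genes had fewer in both knockdown lists, but so did 66.3% of the 19603 genes then tested, whereas 0.194% had more, and the median log2 ratio over all of them was -1.66. The limma test over all these genes called none at an adjusted p of 0.05, with 1502 at an unadjusted p under that value. In simulated lists of this depth the test also called none of the changes put in, so a missing call says little. Those changes were put only in genes with many peaks, and the simulated lists varied by counting alone. Most of the 9 genes have few peaks, so the simulation does not describe them directly. The covered length went the same way as the number of peaks at MUCL1, with 5.25 and 4.58 kb in the control lists and 2.30 and 1.68 kb in the knockdown lists. Peak widths differed between the lists themselves, with medians of 964 and 900.0 bp in ZR751shLucif and 576 and 840.0 bp in ZR751shMLL3. Of the top 50000 peaks, 50.6% and 51.1% in the control lists overlapped a top peak of the other control list, against 31.0% and 35.6% in the knockdown lists. Reproducible peaks were also refitted at the threshold the study lists for H3K4me1 replicate pairs (IDR of 0.1). This refit kept 28969 peaks in ZR751shLucif and 24344 in ZR751shMLL3. The study lists fewer at that threshold for both lines, most so for ZR751shMLL3, so these are not its own peaks. At MUCL1 the refit gave a different count, with 2 in ZR751shLucif and 3 in ZR751shMLL3. By the same count PIP had 4 and 0, AZGP1 3 and 0, MUC1 20 and 15 and AGR2 56 and 38. Within 500 kb MUCL1 had 16 and 20 peaks against 22 and 13, which overlap.

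**Figure D2:**
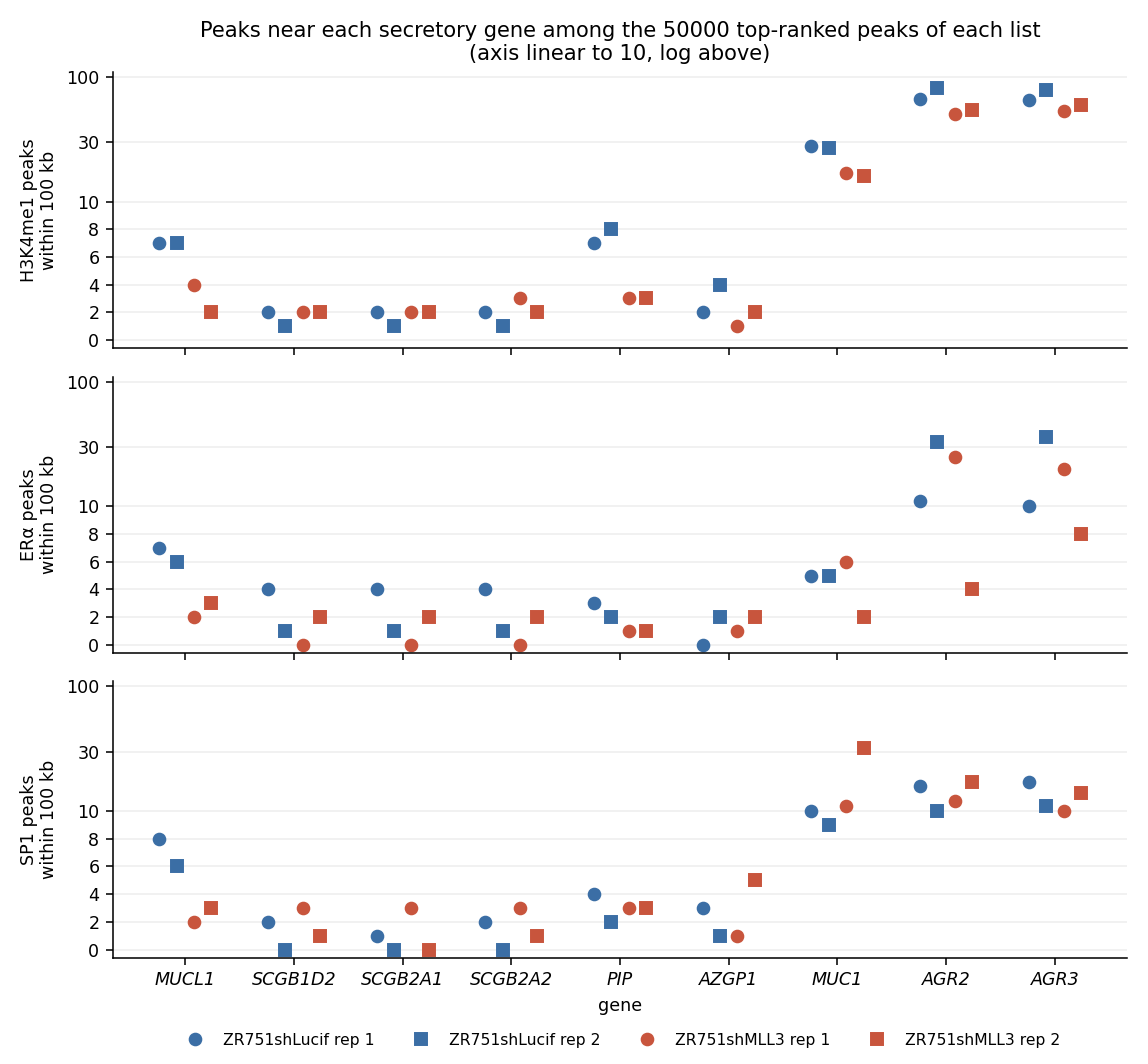
Number of H3K4me1, ERα and SP1 peaks within 100 kb of each secretory gene among the 50000 top-ranked peaks of each list (axis linear to 10 and logarithmic above), with circles for replicate 1, squares for replicate 2, blue for ZR751shLucif and red for ZR751shMLL3. H3K4me1 counts at MUCL1 (7 and 7 against 4 and 2), PIP and MUC1 separate the lines, whereas those at the secretoglobins do not.

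Single H3K4me1 regions are given next. The share of all regions with each pattern was not counted, and the control lists repeat each other's peaks more than the knockdown lists do. At MUCL1, 8 regions held a top-ranked peak in at least 1 list, 3 of them in both control lists, and none in both knockdown lists. The region chr12:55158656-55159944, whose middle is at -89000 bp from the start site (negative is upstream), had ranks of 2484 and 26956 in the controls and 126574 and 71732 in the knockdown lists. The region chr12:55249621-55251446, at 2234 bp inside the gene, had ranks of 12766 and 39369 in the controls, 3882 in ZR751shMLL3 replicate 1 and 142656 in replicate 2, so it was among the top peaks of 1 knockdown list. PIP had 2 regions with a top-ranked peak in both controls and in neither knockdown list, chr7:142827160-142828223 at -1478 bp and chr7:142867380-142868676 at 38858 bp. The first had ranks of 38440 and 37587 in the controls and 223657 and 120202 in the knockdown lists. Another PIP region, chr7:142843659-142845407 at 15363 bp, was top-ranked in both knockdown lists and in 1 control list. At AZGP1 the region chr7:99611895-99613126, at -38857 bp, had ranks of 30383 and 42912 in the controls and was listed in neither knockdown library. In the secretoglobin cluster 1 region did the same by top rank, chr11:62002637-62003809, with ranks of 39982 and 39642 in the controls, no listing in ZR751shMLL3 replicate 1 and rank 69996 in replicate 2. At AGR2 the start site held top-ranked peaks in every list, with best ranks of 1204 and 769 in the controls and 33887 and 30 in the knockdown lists. Of the 52 regions near AGR2, 18 were top-ranked in every list. Both controls and neither knockdown list held 3 of them, and 1 had the reverse pattern. That region, chr7:16907958-16908797, had ranks of 133259 and 190195 in the controls and 13261 and 8356 in the knockdown lists.

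ERα peaks near the genes were far less repeatable than those of H3K4me1. Only 3.08% to 4.13% of the 50000 top ERα peaks of a list overlapped a top peak of the other list of the same line, although 18.2% to 45.7% of the 1000 strongest did. The full estrogen response element was within the 200 bases around the summit in 4.4% to 14.1% of the 1000 strongest ERα peaks, and in 0.176% to 0.434% of the 50000. MUCL1 had 7 and 6 ERα peaks in ZR751shLucif and 2 and 3 in ZR751shMLL3, a log2 ratio of -1.24 ± 0.459 (SE). PIP had 3 and 2 against 1 and 1. At the other genes the lines overlapped: the secretoglobins had 4 and 1 against 0 and 2, AZGP1 0 and 2 against 1 and 2, MUC1 5 and 5 against 6 and 2, AGR2 11 and 33 against 25 and 4, and AGR3 10 and 36 against 20 and 8. The 2 genes of 9 with fewer peaks in both knockdown lists stand beside 11.2% of the 19011 genes tested, and none of the 9 had more in both, beside 8.8%. The limma test called none of these genes, with 641 at an unadjusted p under 0.05. Of the 17 ERα regions at MUCL1, 16 had a top-ranked peak in 1 list only and 1 in both controls, so the lists did not hold the same sites. With all listed peaks MUCL1 had 18 and 36 against 40 and 24, and with peaks reproducible at an IDR of 0.7, the threshold the study lists for ERα replicate pairs, it had 0 in ZR751shLucif and 5 in ZR751shMLL3. A lower threshold that the study also gives was not tried. The fit was unstable for ERα, since it kept 1278 of 16188 matched peak pairs in ZR751shLucif and all 37503 of 37503 in ZR751shMLL3, so the 0 and 5 are not comparable between the lines. The lower ERα count at MUCL1 thus held for the top-ranked peaks within 100 kb. It did not hold for all listed peaks, nor for the top-ranked peaks within 20 or 500 kb.

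One ERα site near the 9 genes was among the strong peaks of both control lists. It lies in an intron of AGR3, at 1019 and 1210 bp downstream of the start site by the 2 summits, and ranked 1803 in ZR751shLucif replicate 1 and 460 in replicate 2. Neither knockdown list held any ERα peak within 1000 bp of the AGR3 start site, but just outside that distance and upstream of the gene, at chr7:16922648-16922957, ZR751shMLL3 replicate 2 had a peak of rank 35274. The H3K4me1 region over the AGR3 intron site, chr7:16920264-16921331, had ranks of 20103 and 14786 in the controls. It was not listed in ZR751shMLL3 replicate 1 and ranked 63971 in replicate 2. Its neighbours differed: chr7:16922718-16924805 was top-ranked in every list, and chr7:16917975-16919716 in both knockdown lists and 1 control list. Of 51 H3K4me1 regions near AGR3, 3 were top-ranked in both controls and neither knockdown list, 1 had the reverse, and 19 were top-ranked in every list. Among 17865 protein-coding genes, 35 (0.196%) had an ERα peak at the start site in both control top lists and none listed in the knockdown lists, and 6 (0.0336%) had the reverse. AGR3 was the only 1 of the 9 genes with either pattern for ERα. None of the 9 had it for H3K4me1, beside 0.353% of genes and 0.028% for the reverse, or for SP1, beside 0.028% and 1.53%. The AGR3 RNA beside it overlapped between the lines, as given above. The 149 bases that both control peaks share are shown because only the control lists held an ERα peak there. A GATA match is in capitals, and no estrogen response element, half-site or forkhead match was present.
AGR3 intron (chr7:16920486-16920634, plus strand): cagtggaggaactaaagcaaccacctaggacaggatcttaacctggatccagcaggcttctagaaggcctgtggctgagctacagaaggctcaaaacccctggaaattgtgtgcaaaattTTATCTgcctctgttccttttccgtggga

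The strongest ERα peak near PIP was in 1 control list. Upstream of PIP, at -2305 bp, a peak ranked 1030 in ZR751shLucif replicate 2 and 237550 in ZR751shMLL3 replicate 1, and was not listed in the remaining 2 lists. The 200 bases around its summit are shown, since no ERα peak near PIP ranked higher in any list. The site held a forkhead and a GATA match, beside 8.5% and 19.3% of the 1000 strongest peaks in that list.
PIP upstream site (chr7:142826765-142826964, plus strand): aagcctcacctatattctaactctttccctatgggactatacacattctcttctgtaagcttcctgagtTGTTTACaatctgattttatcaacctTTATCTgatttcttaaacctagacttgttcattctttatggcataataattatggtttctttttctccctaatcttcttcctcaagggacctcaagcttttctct

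**Figure D3:**
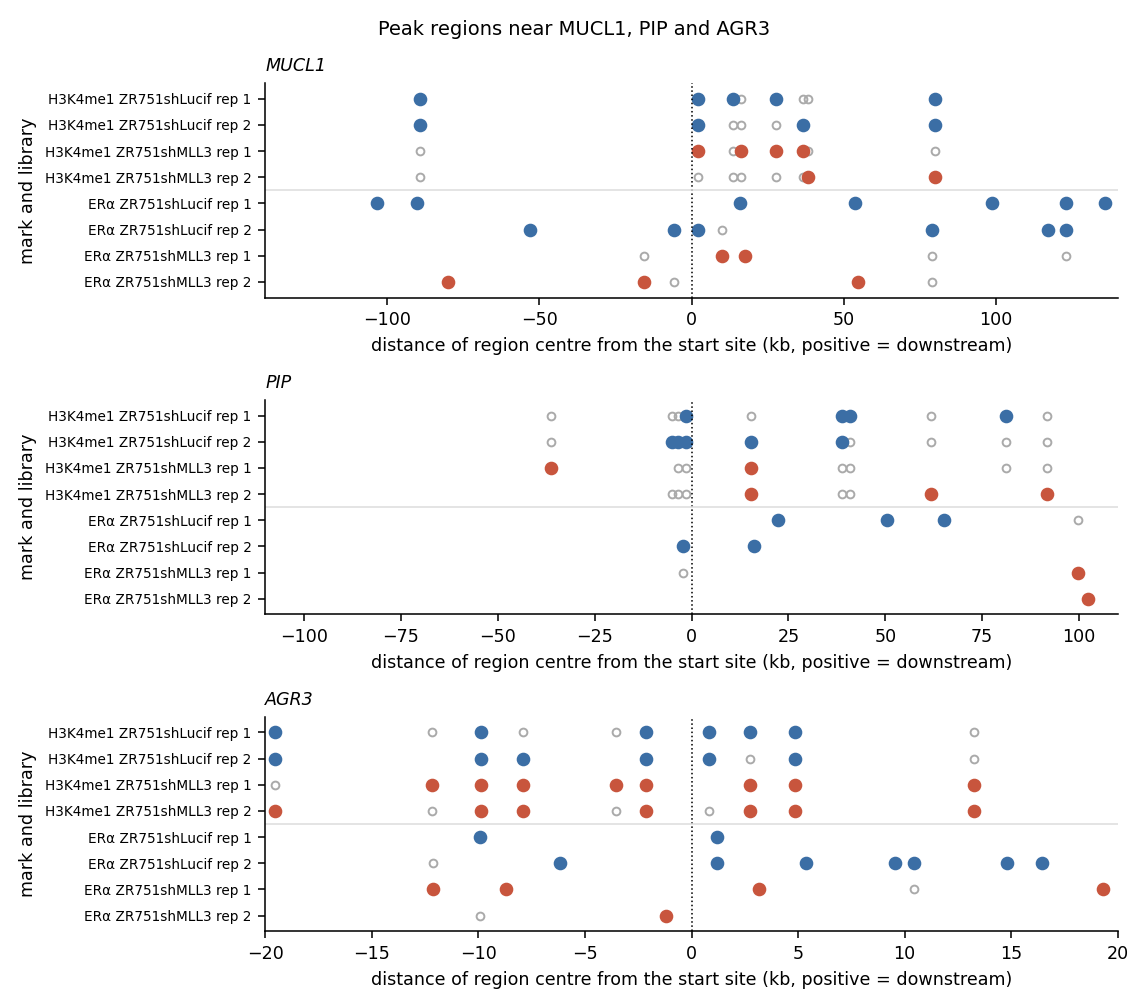
H3K4me1 and ERα peak regions near MUCL1, PIP and AGR3, by distance of the region's centre from the start site (kb), with filled points for a peak among the 50000 top-ranked of that list (blue ZR751shLucif, red ZR751shMLL3) and open grey points for a listed peak of lower rank. At AGR3 the ERα site just inside the gene is filled in both control rows and absent from both knockdown rows, whereas most ERα points at MUCL1 stand in 1 row only.

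SP1 peaks were counted in the same way, and 6.35% of the 20514 genes tested had fewer in both knockdown lists and 16.5% had more. MUCL1 had 8 and 6 SP1 peaks in ZR751shLucif and 2 and 3 in ZR751shMLL3, a log2 ratio of -1.33 ± 0.525 (SE). It was the only 1 of the 9 genes with fewer in both. This did not hold within 20 kb, where 4 of the 9 were tested, or within 500 kb. The strongest SP1 peaks near MUCL1 were 118022 and 101694 bp downstream of its start site in the ZR751shLucif lists. In the ZR751shMLL3 lists they lay in the gene, at -4699 and 37783 bp. MUC1 had 10 and 9 against 11 and 32, and was the only 1 with more in both. The limma test called no gene, with 709 at an unadjusted p under 0.05. The median log2 ratio over all genes tested was 0.33 for SP1. ZR751shMLL3 replicate 2 carries the MUC1 count, and it also had the highest mean over all genes, 6.47 SP1 peaks per gene against 3.96 to 4.14 in the other lists. At the MUC1 start site, next to the GC boxes shown above, 3 top-ranked SP1 peaks were in ZR751shMLL3 replicate 2 with a best rank of 10445, and the best ranks in the other lists were 192071 in ZR751shLucif replicate 2 and 99558 in ZR751shMLL3 replicate 1. None of the 19 SP1 regions at MUCL1 had a top-ranked peak in more than 1 list.

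The 5 genes whose values over the 4 RNA-seq libraries lay closest to those of MUCL1, of which 4 are given, were found by the Euclidean distance between log2(FPKM + 0.5) values centred on each gene's mean. The nearest was MGP, matrix Gla protein, at a distance of 1.13, with 858 and 173 FPKM in ZR751shLucif and 12.3 and 28.3 FPKM in ZR751shMLL3. BPIFB1, a secreted protein of mucosal surfaces, was at 2.25, with 70.8 and 9.53 against 1.86 and 0.486 FPKM. TM4SF1, a membrane protein, was at 2.38, with 63.2 and 43.8 against 6.01 and 10.5 FPKM. CXCL17, a chemokine of mucosal tissue, was at 2.42, with 8.64 and 4.72 against 0.623 and 0.375 FPKM. With 4 libraries the distance mainly reflects the difference between the lines. None of the 8 other secretory genes was among these 5, and SCGB2A2, the member with the next lowest difference, was -1.50 against -5.00 for MUCL1 (log2).

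**Figure D4:**
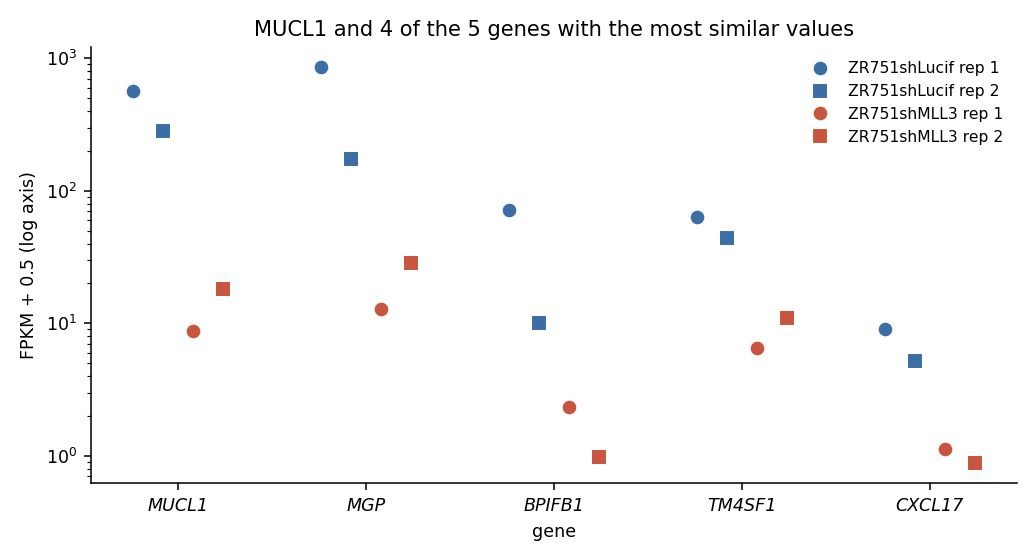
FPKM + 0.5 (log axis) of MUCL1 and 4 of the 5 genes with the most similar values over the 4 RNA-seq libraries, with circles for replicate 1, squares for replicate 2, blue for ZR751shLucif and red for ZR751shMLL3. In each of the 5 genes shown both knockdown values lie below both control values, as in MUCL1 with 8.21 and 17.7 FPKM against 570.3 and 282 FPKM.

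Gene lists around secretion were set beside the 9 genes. They hold 169 other genes, of which 97 passed the filter. None was called by limma at an adjusted p of 0.05, with 14 at an unadjusted p under that value, and their median log2 difference was -0.18 beside -0.10 over all genes tested. Of the 97, 30 had both knockdown values below both controls and 15 had both above, which is 30.9% and 15.5%, beside the 25.3% and 17.6% of all genes tested. The counts per list that follow are to be read beside these same shares.

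None of the 7 other secretoglobins passed the filter, and 5 of them were listed at 0 in every library, so the secretoglobins expressed by these cells were the 3 described. Of 16 other mucins, 2 passed, and neither was lower. MUC20, a membrane mucin, had 9.05 and 5.69 against 14.9 and 12.6 FPKM, a difference of 0.88 ± 0.320 (SE, log2). MUC5B, a gel-forming mucin, had 0.723 and 2.94 against 2.12 and 1.72 FPKM, which overlap.

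Of 26 genes of mucin-type O-glycosylation, which build the sugars on MUCL1 and MUC1, 16 passed, with 7 lower and 4 higher without overlap. GCNT1, which makes the core 2 branch, had 5.13 and 4.03 against 1.06 and 0.875 FPKM, and GALNT7, a transferase that prefers sites near ones already glycosylated, had 28.7 and 28.5 against 10.8 and 13.3 FPKM. At the other end GALNT6, of the same transferase family, had 40.1 and 48.5 against 71.6 and 77.5 FPKM, and ST6GALNAC4, a sialyltransferase, had 66.3 and 43.8 against 76.5 and 90.0 FPKM. GALNT7 and GALNT6 thus lay on opposite sides, at -1.22 ± 0.271 (SE, log2) and 0.75 ± 0.271 (SE, log2), and neither passed the test.

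Of 17 protein disulfide isomerases, the enzyme family of AGR2 and AGR3, 13 passed, 4 were lower without overlap and none higher. ERP27, a member without a catalytic site, had 50.7 and 40.8 against 9.18 and 11.9 FPKM, a difference of -2.07 ± 0.291 (SE, log2). ERP29 had 243 and 89.0 against 84.6 and 91.0 FPKM, so that ZR751shLucif replicate 1 stood above the other 3 libraries, and the highest differences were those of PDIA4 at 0.23 ± 0.312 (SE, log2) and TMX4 at 0.26 ± 0.335 (SE, log2). Of 28 endoplasmic reticulum chaperones and stress genes, 26 passed, with 6 lower and 4 higher without overlap and a median of -0.16 (log2). SSR2, a subunit of the translocon-associated complex, was lowest at -0.99 ± 0.331 (SE, log2), and SEL1L, of the degradation machinery, was next at -0.57 ± 0.375 (SE, log2). CRELD2 and SDF2L1, both stress-induced proteins of that compartment, were highest at 0.61 ± 0.262 (SE, log2) and 0.55 ± 0.295 (SE, log2).

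Of 13 apocrine genes, 7 passed, and their median was -0.65 (log2). DHRS2, a short-chain dehydrogenase, had 43.8 and 41.0 against 39.8 and 14.7 FPKM, and FASN, the fatty acid synthase, was the highest at 0.46 ± 0.308 (SE, log2). Among the luminal regulators 19 of 21 genes passed, with 9 lower and none higher without overlap, beside 25.3% and 17.6% of all genes tested. PRLR, the prolactin receptor, had 17.1 and 21.4 against 2.92 and 6.13 FPKM, a difference of -2.04 ± 0.384 (SE, log2), and KLF5, a transcription factor, had 14.5 and 15.4 against 6.44 and 5.83 FPKM. GATA3 and TFAP2C, transcription factors of luminal cells, were the highest at 0.42 ± 0.321 (SE, log2) and 0.35 ± 0.358 (SE, log2). ESR1, which encodes ERα, had 11.2 and 14.2 against 12.1 and 10.8 FPKM, which overlap.

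Milk and other luminal secreted products lay on both sides. Of 20 such genes 9 passed, with 2 lower and 4 higher without overlap. LCN2, an iron-siderophore carrier, had 6.19 and 9.45 against 1.68 and 1.19 FPKM, and SLPI, a secreted protease inhibitor, had 136 and 61.0 against 26.8 and 22.9 FPKM. S100A8 and S100A9, which form calprotectin, were at the other end. S100A8 had 3.25 and 3.08 against 4.72 and 60.7 FPKM, and S100A9 had 29.4 and 10.7 against 38.3 and 155 FPKM, so that ZR751shMLL3 replicate 2 stood above the other 3 libraries in both. The caseins CSN1S1, CSN2 and CSN3 and LALBA, the milk proteins proper, were at 0 to 0.214 FPKM in every library. Among the luminal epithelium markers FOXA1, a pioneer factor, was lowest at -0.65 ± 0.345 (SE, log2), followed by EPCAM at -0.31 ± 0.297 (SE, log2), and the keratins KRT18 and KRT8 were highest at 0.60 ± 0.434 (SE, log2) and 0.53 ± 0.489 (SE, log2).

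**Figure D5:**
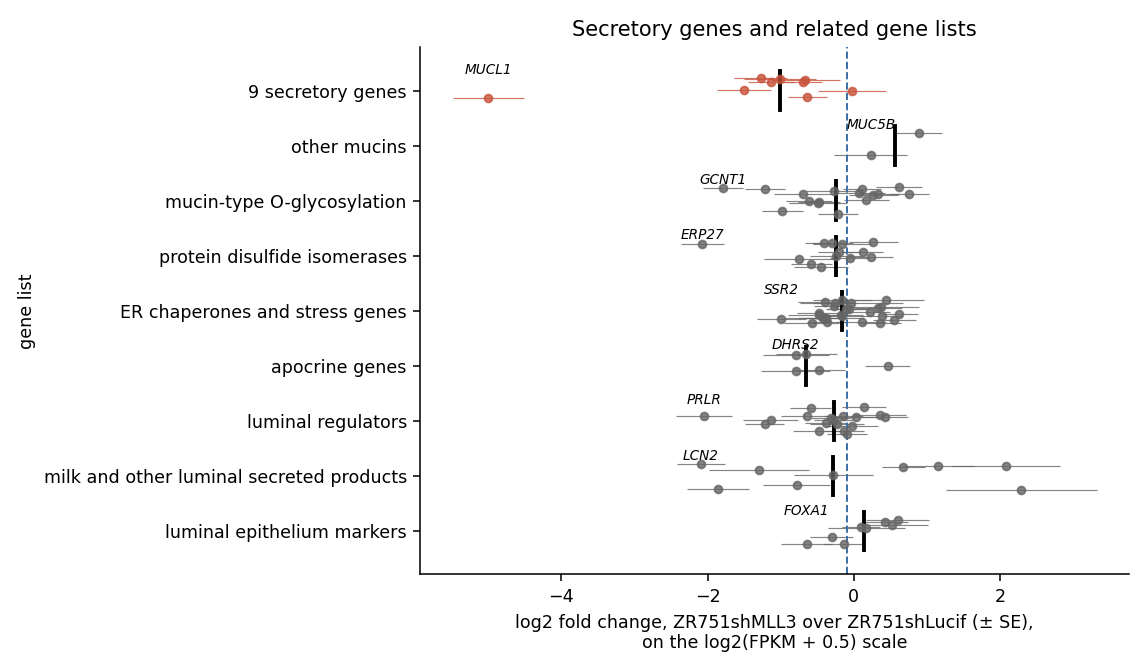
Log2 fold change of ZR751shMLL3 over ZR751shLucif, on the log2(FPKM + 0.5) scale with SE, for the 9 secretory genes (red) and the genes of 8 related lists that passed the filter (grey, 2 genes not shown), with a bar at the median of each whole list, the lowest gene shown named and a dashed line at the median of all genes tested. The 9 secretory genes have a median of -1.01 and MUCL1 stands apart from the other 8 at -5.00.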

How the data were processed

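The members and gene lists were chosen with earlier results of these data known. Per the labels and the study's methods, the authors mapped RNA-seq reads with TopHat2 2.0.13 to hg19. They deposited FPKM per RefSeq gene from Cufflinks and Cuffnorm 2.2.1. These hold no counts, so the depth cannot be read from them, and the study reports it separately. ChIP-seq reads were mapped with BWA 0.7.5a-r405, duplicates were removed with Picard 1.126, and the authors deposited SPP peak lists per library, called against 1 input per line, with a signal value and a −log10 FDR (q-value) for each peak. One unnamed row was left out.

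Differences were fitted with limma 3.58.1 (R 4.3.3) on log2(FPKM + 0.5) where its mean exceeded 1, and p-values were adjusted by Benjamini-Hochberg over all genes at a threshold of 0.05. Surrogate variables, used in the study's methods, were an alternative. Of 22894 rows matched to a RefSeq symbol, 21508 had a GRCh37 position. Peaks were ranked by signal, and log2(peaks + 0.5) was tested in genes with a mean of at least 1 peak. Reproducible peaks were refitted with a copula mixture. The named genes were the 9 members, KMT2C, the 2 highest and 2 lowest of each list, the 5 genes nearest MUCL1, and each library's top peak or start-site peaks. ESR1, the caseins, LALBA, the markers given to describe the cells, the H3K4me1 regions in both control lists and the neighbouring ERα ranks were named after their values were seen. Some genes and sites that the rule names are not reported here. The labels call the replicates biological, without saying more, so their spread may be in part technical. The fits were tested on simulated data.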

Additional observations from a re-analysis of the deposited data

How the results depend on the processing

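Over 13 alternatives to the RNA-seq processing, MUCL1 stayed between -5.53 and -4.47 and SCGB2A2 between -1.89 and -1.10 (log2), and MUC1 was negative in 10 and positive in 3. The median of the 9 genes stayed between -1.41 and -0.83 (log2), and 7 or 8 of them were lower without overlap. The count of 8 came only with 1 library left out, where 32.7% to 54.7% of all genes tested were lower without overlap. In the other settings 17.4% to 25.4% of all genes tested were. KMT2C was between -1.70 and -0.35 (log2). The count of genes called (1) was 0 with no filter on low values and 2 to 1269 when 1 library was left out, the latter without ZR751shLucif replicate 2 (353 higher, 916 lower). Among the related lists, 0 to 17 genes were then called. With the replicate number as a block 33 genes were called, 4 of them in the related lists; same-numbered RNA libraries shared only a number (r of 0.0374). For ERα the same-numbered lists ran against each other (r of -0.256), and the crossed pairing, added after seeing the data, called 0 genes, as did the block. With all listed H3K4me1 peaks 87 genes were called (80 higher, 7 lower).

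The count of genes with fewer H3K4me1 peaks (5) was 3 with 20000 peaks per list, where 4 of the 9 were tested. It was 2 within 20 kb, where 6 were tested. Of all genes tested, 15.2% and 16.0% then had fewer, beside 16.1% in the main count. The count for ERα (2) was 1 with 20000 peaks, at an FDR of 0.01 or by covered length (added after seeing the data). It was 0 with all listed peaks, within 20 or 500 kb, or by reproducible peaks, and 4 to 5 with 1 library left out. Of all genes tested, 11.2% had fewer ERα peaks in the main count, 0.949% with all listed peaks and 22.8% to 32.1% with 1 library left out. With 20000 peaks, at an FDR of 0.01 or in the other windows 4.09% to 10.1% did. The count for SP1 (1) was 4 with all listed peaks, 0 within 20 or 500 kb or by covered length, and 8 by reproducible peaks. It was 1 to 3 with 1 library left out. Of all genes tested, 6.35% had fewer SP1 peaks in the main count and 16.7% with all listed peaks. Within 20 and 500 kb 6.34% and 6.96% did, and 14.8% to 21.7% with 1 library left out. The fit behind the reproducible peaks was unstable for ERα and SP1. For SP1 it kept all 27119 of 27119 matched pairs in ZR751shLucif and 2050 of 23965 in ZR751shMLL3, so these counts are not comparable between the lines. An FDR of 0.01 could not be tried for SP1, since both ZR751shLucif lists hold 0 such peaks. ZR751shLucif ERα replicate 2 and the ZR751shLucif input carry another library series name than the other ERα libraries and the ZR751shMLL3 input, so input series and line cannot be told apart. The cause of these shifts was not tested.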
